A study of Mus musculus with 12 samples.

Results

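The inhibitor of DNA binding (ID) genes Id1, Id2, Id3 and Id4 were followed in primary mouse hepatocytes (mouse HPC) stimulated with TGF-β1. They were taken by symbol from the probe sets that the platform annotation pairs with exactly 1 gene. Each ID gene was represented by 1 probe set, so the group held 4 of 19938 genes and 4 of 21789 probe sets tested. The data were 12 Affymetrix Mouse Gene 1.0 ST arrays, 3 each of untreated cells and of cells after 20 min, 2 h and 4 h with recombinant human TGF-β1 at 1 ng/mL. All cells were collagenase isolates from male C57BL/6 mice, cultured on collagen in HepatoZYME-SFM, and their medium was exchanged before stimulation. The labels do not say whether the 3 replicates came from different animals, so the p-values measure the spread between these arrays. Untreated cells have no time series of their own, so that time since the medium exchange and TGF-β1 exposure cannot be told apart.

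ID proteins carry a helix-loop-helix domain without the basic region that contacts DNA. They pair with E proteins and thereby keep tissue-specific basic helix-loop-helix (bHLH) factors from binding their E-box sites. In many cell types Id1, Id2 and Id3 are transcribed in direct response to bone morphogenetic proteins (BMP) through SMAD1 and SMAD5, and TGF-β1 can raise or lower them depending on the cell and the time. In the liver, hepatocyte Id1 and the iron hormone gene Hamp are known readouts of BMP6 from sinusoidal endothelium.

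The bases upstream of the ID start sites are shown because SMAD complexes contact promoters at short GC-rich and GTCT motifs. Of the 4 ID genes, 3 had an entry in the RefSeq promoter table (build GRCm38.p6), and Id1 had none there. The 250 bases before the annotated start are given 5′ to 3′ on the gene's strand, with the letters GGCGCC and GTCT (or its complement AGAC) in capitals.
Id2, chr12:25096093-25096342, minus strand: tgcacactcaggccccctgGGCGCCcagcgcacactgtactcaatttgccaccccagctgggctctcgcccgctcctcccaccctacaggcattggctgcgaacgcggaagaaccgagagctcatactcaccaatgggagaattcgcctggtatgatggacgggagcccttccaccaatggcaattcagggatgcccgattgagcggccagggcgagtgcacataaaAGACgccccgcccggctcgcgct
Id3, chr4:136143572-136143821, plus strand: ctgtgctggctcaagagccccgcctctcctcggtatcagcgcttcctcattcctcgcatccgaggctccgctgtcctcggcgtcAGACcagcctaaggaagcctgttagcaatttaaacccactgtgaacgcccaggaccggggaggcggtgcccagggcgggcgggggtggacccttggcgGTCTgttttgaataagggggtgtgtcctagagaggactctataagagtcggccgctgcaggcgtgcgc
Id4, chr13:48260866-48261115, plus strand: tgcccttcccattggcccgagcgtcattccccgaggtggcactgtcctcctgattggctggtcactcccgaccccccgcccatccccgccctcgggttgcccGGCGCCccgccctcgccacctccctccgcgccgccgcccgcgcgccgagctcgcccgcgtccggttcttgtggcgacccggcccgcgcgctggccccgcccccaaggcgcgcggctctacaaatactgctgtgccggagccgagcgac
GGCGCC, which reads the same on both strands, stood 1 time in the Id2 window, beginning 231 bases before the start, and 1 time in the Id4 window, beginning at 148 bases. It was not in the Id3 window, and 9.59% of 32851 promoter windows of this length held it. GTCT, searched on both strands, stood 2 times in Id3, 1 time in Id2 and 0 times in Id4, against 82.9% of all windows with at least 1 match. The E-box CANNTG was found 1 time in Id2, in neither of the other windows, and in 66.2% of all windows. GC content was 62.8% in the Id2 and Id3 windows and 75.6% in that of Id4. These matches describe the letters only, since no binding was measured.

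TGF-β1 did not move any of the ID genes past the threshold of limma (adjusted p under 0.05, Benjamini-Hochberg over all probe sets) at any time point. Id1 and Id3 were higher on some treated arrays and lower on others, in a similar pattern for both genes. Id2 was lower at 4 h in each of the 3 replicates, with an estimated log2 change of -0.41, and missed the threshold. Id4 stayed within 0.11 of the untreated mean on average at every time point. Of all probe sets, 4.59% were called at 4 h, 0% at 2 h and 0% at 20 min, and 1.4% by the F test over the time course. Without adjustment, p was under 0.05 in limma for 0 ID genes at 20 min and 2 h and for 1, Id2, at 4 h, against 8.46%, 6.28% and 17% of all probe sets. Of all probe sets, 0% were called between 20 min and 2 h, 0.62% between 20 min and 4 h and 0.078% between 2 h and 4 h, no ID gene among them.

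The log2 signal of Id1 in untreated cells was 8.99, 7.96 and 8.01 in replicates 1, 2 and 3. After 20 min of TGF-β1 it was 8.31, 7.92 and 7.75, and after 2 h 9.05, 7.99 and 9.03. At 4 h the 3 arrays read 8.49, 8.68 and 8.44. Replicate 1 was thus high before treatment, and at 2 h replicates 1 and 3 were high while replicate 2 remained near its untreated level. At 4 h the 3 arrays lay close together, between the high and the low untreated arrays, so that treated and untreated groups overlapped at every time point. From lowest to highest, the Id1 group means were 7.99 ± 0.29 at 20 min, 8.32 ± 0.58 untreated, 8.54 ± 0.13 at 4 h and 8.69 ± 0.61 at 2 h (SD, n = 3), and no neighbours in this order differed past the threshold.

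Paired by replicate, Id1 changed by -0.68, -0.04 and -0.26 at 20 min, an estimate of -0.33 with a standard error (SE) of 0.24 (limma, adjusted p = 0.726). All 3 replicates were lower, as were those of 17.1% of all probe sets. At 2 h the differences were 0.06, 0.03 and 1.03, an estimate of 0.37 with a 95% interval from -0.15 to 0.89 (limma, adjusted p = 0.928), and 11% of all probe sets were likewise higher in 3 of 3 replicates. Nearly all of this estimate came from replicate 3, without which it was 0.05. At 4 h the difference was -0.50 in replicate 1 and 0.72 and 0.44 in replicates 2 and 3. The 4 h estimate of 0.22 had an interval from -0.30 to 0.74 (limma, adjusted p = 0.721), was -0.03 without replicate 2 and was 0.58 without replicate 1 (limma, adjusted p = 0.274).

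Id1 was also higher at 2 h than at 20 min, by 0.74, 0.07 and 1.28 in the 3 replicates. The estimate of 0.70 (SE 0.24) had an unadjusted p of 0.013 in limma and an adjusted p of 0.939, and 5.11% of all probe sets had an unadjusted p under 0.05 in this comparison. From 20 min to 4 h the Id1 differences were 0.18, 0.76 and 0.70 (limma, estimate 0.55, unadjusted p = 0.0412, adjusted p = 0.474), where 9.78% of all probe sets had an unadjusted p under 0.05. These comparisons share the 20 min arrays, on which Id1 had its lowest signal in each of the 3 replicates. Over the time course as a whole, Id1 had an adjusted p of 0.448 in the F test of limma, Id2 0.236, Id3 0.861 and Id4 0.865. Id2 alone had an unadjusted p under 0.05 there (0.0153), as had 12.1% of all probe sets.

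**Figure D1:**
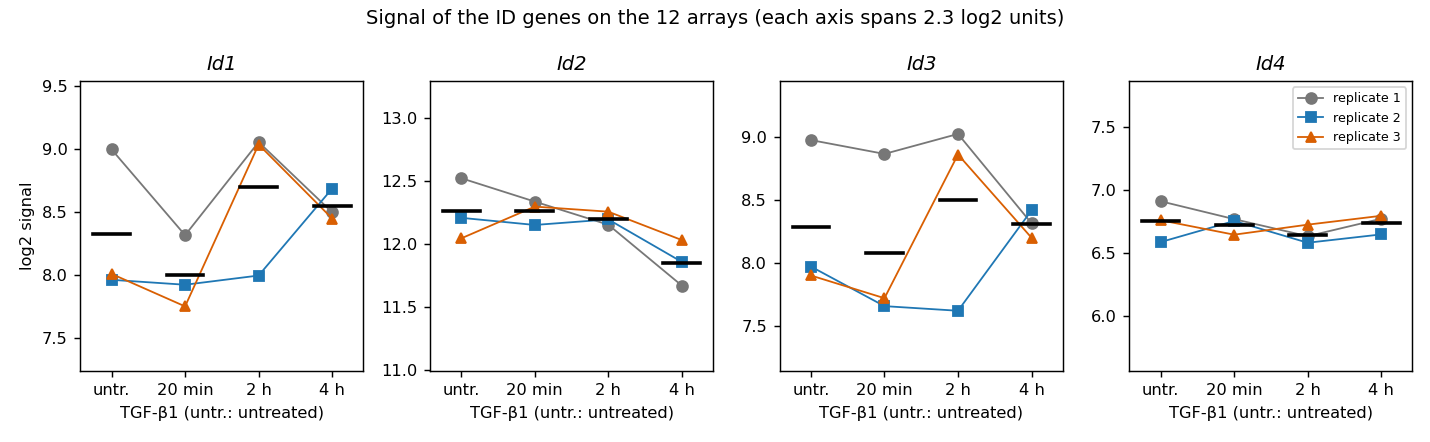
Log2 signal of Id1, Id2, Id3 and Id4 on each of the 12 arrays by time of TGF-β1 treatment (untr., untreated). Symbols joined by lines are replicates and black bars are group means, and Id1 and Id3 of replicate 1 start at 8.99 and 8.97, about 1 log2 unit above the other untreated arrays.

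Id3, which in many tissues is transcribed together with Id1, read 8.97, 7.97 and 7.90 in untreated replicates 1, 2 and 3 and 8.86, 7.66 and 7.72 at 20 min. At 2 h its log2 signals were 9.02, 7.62 and 8.86, and at 4 h 8.31, 8.42 and 8.20. As with Id1, replicate 1 was high from the start, replicate 3 joined it at 2 h, and the 4 h arrays converged. The group means were 8.28 ± 0.60 untreated, 8.08 ± 0.68 at 20 min, 8.50 ± 0.77 at 2 h and 8.31 ± 0.11 at 4 h (SD, n = 3). All groups overlapped with the untreated one, and no time points next to each other in the order of these means differed past the threshold.

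The paired Id3 differences were -0.11, -0.31 and -0.18 at 20 min (limma, estimate -0.20, adjusted p = 0.869). At 2 h they were 0.05, -0.35 and 0.96 (limma, estimate 0.22, interval -0.38 to 0.82, adjusted p = 0.986). At 4 h they were -0.66, 0.45 and 0.30 (limma, estimate 0.03, interval -0.57 to 0.62, adjusted p = 0.978). The high value of replicate 3 at 2 h and the opposite signs at 4 h thus matched those of Id1, while replicate 2 at 2 h was lower for Id3 and near its untreated level for Id1. The 4 h estimate was 0.37 without replicate 1 and -0.18 without replicate 2.

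The spread between replicates was wide for these genes. After time point and replicate number were fitted, the moderated residual SD was 0.29 for Id1 and 0.33 for Id3, above that of 99.8% and 99.9% of all probe sets. That of Id2 was 0.15, above 93.5%, and that of Id4 was 0.092, above 45.8%. Changes of Id1 and Id3 within the intervals given above could therefore not be told from no change with 3 arrays per group.

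Id2 had log2 signals of 12.53, 12.21 and 12.05 in untreated replicates 1, 2 and 3. At 20 min they were 12.34, 12.15 and 12.30, and at 2 h 12.16, 12.20 and 12.26. At 4 h they were 11.67, 11.86 and 12.03. Every 4 h array lay below every untreated array, although the highest at 4 h and the lowest untreated array, both of replicate 3, were nearly level. Such a separation downward at 4 h was seen for 5.58% of all probe sets. In ascending order the means were 11.86 ± 0.18 at 4 h, 12.20 ± 0.05 at 2 h and 12.26 both at 20 min and untreated (SD 0.10 and 0.24, n = 3), with no neighbours apart past the threshold.

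The paired Id2 differences at 4 h were -0.85, -0.35 and -0.01, an estimate of -0.41 (SE 0.12, interval -0.67 to -0.14). Of all probe sets, 17.4% were likewise lower in 3 of 3 replicates. The unadjusted p in limma was 0.00575 and the adjusted p 0.0863. At this time point 9.49% of all probe sets were lower with an unadjusted p under 0.05. The estimate shrank to -0.18 without replicate 1, and among the alternatives run the 4 h difference passed the threshold only when the untreated array of replicate 3 was left out (limma, -0.56, adjusted p = 0.0312). Against 2 h, the Id2 differences at 4 h were -0.48, -0.34 and -0.23 (limma, unadjusted p = 0.0136, adjusted p = 0.358), and 8.83% of all probe sets had an unadjusted p under 0.05 there. At 20 min and 2 h the Id2 estimates were 0.00 (interval -0.26 to 0.27) and -0.06 (interval -0.32 to 0.21).

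Id4 had a mean log2 signal of 6.72 over all arrays, and how far it stood above background was not tested. Signals of different probe sets are not on a common scale, so levels are not compared between the ID genes. The 12 Id4 values lay between 6.58 and 6.91 and the Id4 groups overlapped throughout. The estimates were -0.03, -0.11 and -0.01 at 20 min, 2 h and 4 h, with a 4 h interval from -0.18 to 0.15. Its interval was the narrowest among the ID genes.

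**Figure D2:**
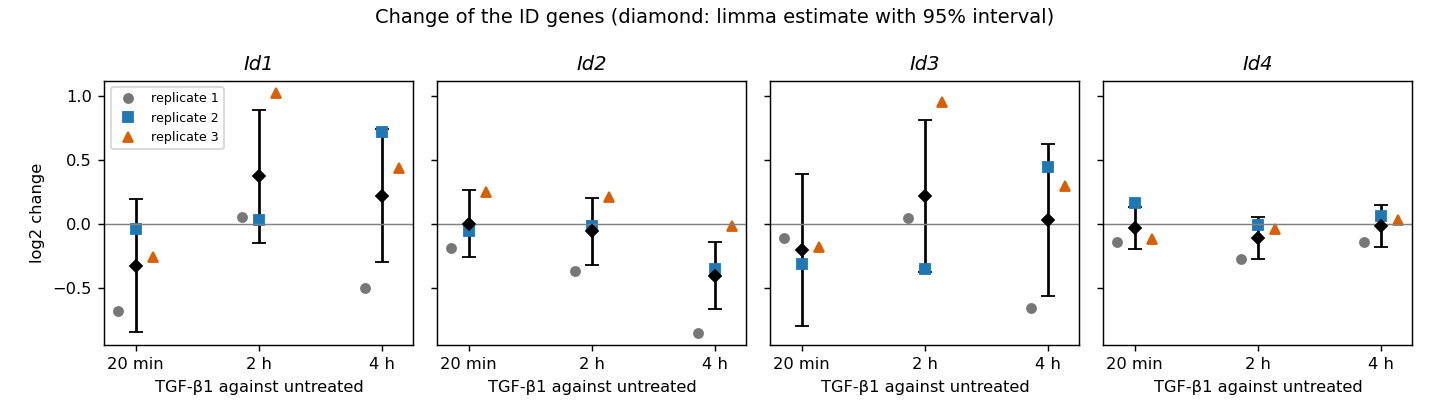
Log2 change of each ID gene after 20 min, 2 h and 4 h of TGF-β1 against untreated cells. Coloured symbols are the 3 replicates, diamonds the limma estimates with 95% intervals, and only the 4 h interval of Id2, from -0.67 to -0.14, lies wholly on one side of 0.

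Pairs of ID genes were also compared within each array. At 4 h the change of Id1 exceeded that of Id3 by 0.16, 0.28 and 0.14 in the 3 replicates, and that of Id2 by 0.35, 1.07 and 0.45. The change of Id2 minus that of Id3 was -0.19, -0.80 and -0.31. Each of these differences had the same sign in 3 of 3 replicates, and the exact sign-flip test gave p = 0.25 (2-sided), the smallest p that 3 replicates allow. At 4 h the order of Id1, Id3 and Id2 was thus the same in all replicates, while at 2 h Id2 minus Id3 was -0.42, 0.34 and -0.75 and at 20 min Id1 minus Id3 was -0.57, 0.28 and -0.08. Of the Id4 pairs at 4 h, those with Id1 and Id3 had mixed signs.

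The likeness of Id1 and Id3 was described over the 12 arrays after the mean of each replicate number was taken off. The 12 points are 4 time points of 3 replicates and share those replicates, so no p is given. Pearson's r between Id1 and Id3 was 0.873 (Spearman's rho 0.762), and 0.703 without the 2 arrays farthest from the median of Id1. Within replicates 1, 2 and 3 alone it was 0.57, 0.90 and 0.99 over 4 time points each. Between Id1 and Id2 r was -0.03, with 0.34, -0.98 and 0.04 within replicates 1, 2 and 3, and between Id2 and Id3 it was 0.21, with 0.87, -0.86 and 0.16. Id4 had r of 0.10 with Id1 and with Id2 and of 0.03 with Id3.

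The 5 genes most like each ID gene were taken among 9882 other genes with a mean signal at or above the median. For Id1 they were Bhlhe40 (r = 0.937), a bHLH repressor, Tsc22d1 (0.931), the stress gene Gadd45b (0.924), the anti-apoptotic Mcl1 (0.916) and the Polycomb ubiquitin ligase gene Rnf2 (0.908). For Id3 they were Gadd45b (0.920), Tcim (0.917), Gadd45g (0.916), the mitochondrial ADP/ATP carrier gene Slc25a5 (0.897) and Bhlhe40 (0.881). Gadd45b and Bhlhe40 were thus on both lists. Both lists were ranked on the same arrays, where Id1 and Id3 had r = 0.873, so shared members add little to that value. At 4 h Bhlhe40 showed differences of -0.40, 0.50 and 0.50, and limma did not call it (estimate 0.20, adjusted p = 0.671). These have the signs of Id1, but Bhlhe40 was picked by its r with Id1 over these arrays. Their match therefore adds no further likeness.

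The genes nearest to Id2 were Usp1 (0.958), which encodes a deubiquitinase, the cytokine gene Il33 (0.930), Mllt3 (0.923), Prr16 (0.918) and the cholesterol synthesis gene Sqle (0.916). For Usp1, picked by its r with Id2 over these arrays, the differences at 4 h were -0.58, -0.20 and -0.01 (limma, estimate -0.26, adjusted p = 0.133). Their order, which was that of Id2, adds no further likeness. Il33 had an estimate of -0.36 at 4 h (limma, adjusted p = 0.0502). The nearest to Id4, taken among 9883 genes, were Osgep (0.939), the activin receptor gene Acvr2b (0.924), Foxk1 (0.812), Mthfd1l (0.782) and Paxip1 (0.767). None of these neighbours of Id2 and Id4 passed the threshold at 4 h.

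**Figure D3:**
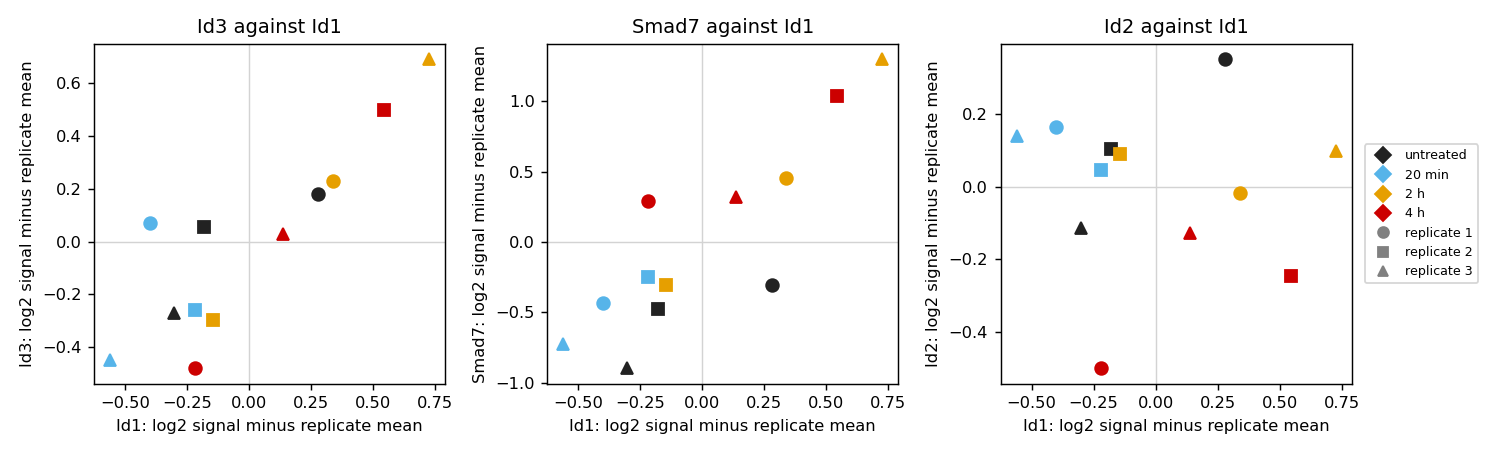
Replicate-centred log2 signals of Id3, Smad7 and Id2 (y axes) against Id1 (x axes), with time points in colours and replicates as symbols. Id3 and Smad7 rise with Id1 (r = 0.873 and 0.862, but 0.57 and 0.37 within replicate 1). For Id2 the pooled r is -0.03, with values of opposite sign within replicates.

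Inhibitory SMADs and other known BMP targets were set beside the ID genes as other readouts of SMAD activity. Smad6, the inhibitory SMAD that acts mainly on BMP receptors, rose at 4 h in all replicates alike, by 0.54, 0.60 and 0.62 (limma, estimate 0.59, SE 0.08, adjusted p = 0.00391). The Smad6 call was kept in 21 of 23 alternatives and lost without replicate 3 and without pairing by replicate number. Its mean log2 signal of 6.85 lay below the median of 7.23 over all probe sets. How far Smad6 stood above background was not tested. Smad7, which blocks both TGF-β and BMP receptors, was higher by 0.76, 0.17 and 2.19 at 2 h and by 0.60, 1.51 and 1.22 at 4 h. Its estimates of 1.04 and 1.11 missed the threshold (limma, adjusted p = 0.521 and 0.0993). Among all genes ranked for likeness to Id1, Smad7 was close, with r = 0.862. This r was 0.66 without the 2 arrays farthest from the median of Id1. Within replicates 1, 2 and 3 alone it was 0.37, 0.98 and 0.97.

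Atoh8, a BMP-responsive bHLH gene of the liver, rose at 4 h by 0.51, 1.67 and 1.75 (limma, estimate 1.31, SE 0.28, adjusted p = 0.0222). This call was kept in 14 of 24 alternatives and lost without replicate 2 and without replicate 3. At 2 h the Atoh8 differences were -0.26, -0.24 and 1.16, so that replicate 3 alone was high. For Id1 and Id3 replicate 3 had the highest difference there too. Smad9, a BMP-type SMAD that is itself a BMP target, differed by -0.06, 1.23 and 0.74 at 4 h (limma, estimate 0.63, adjusted p = 0.123). Hamp, the gene of the iron hormone hepcidin, had differences of 0.06, -0.47 and 0.38 at 2 h. At 4 h they were -0.10, 0.01 and -0.03, an estimate of -0.04 with an interval from -0.36 to 0.28 (limma, adjusted p = 0.932).

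Some SMAD target genes were high or low on the same arrays as Id1, and others were not. On the 2 h array of replicate 3, Id1, Id3, Smad7, Skil and Atoh8 were all at least 0.96 above the untreated array of that replicate, and on that of replicate 2 none of them was more than 0.17 above it. At 4 h replicate 1 gave the lowest difference of the 3 replicates for each of these genes. Pmepa1, a TGF-β target that restrains SMAD signalling, was likewise lowest in replicate 2 at 2 h, at 0.39 against 1.49 and 1.74, and was called at 4 h with 2.68, 2.95 and 2.70 (limma, adjusted p = 0.000685). For the SMAD co-repressor gene Skil the differences were 0.46, 0.07 and 1.45 at 2 h and 0.49, 1.77 and 1.65 at 4 h (limma, estimate 1.31 at 4 h, adjusted p = 0.0227). The Skil call was kept in 13 of 24 alternatives and lost without replicate 2 and without replicate 3. Thbs1 and Tgfbr1, also TGF-β targets, ran otherwise at 4 h, where replicate 1 was highest. For Thbs1 the differences were 0.72, -0.17 and -0.11 at 2 h and 2.16, 1.47 and 0.83 at 4 h. For Tgfbr1 they were 0.34, 0.08 and 0.24 at 2 h and 1.10, 0.76 and 0.61 at 4 h. At 2 h replicate 2 was thus lowest for both, as for Pmepa1. The genes set side by side here were chosen after their values were seen. The study's methods describe a batch effect among its mouse HPC arrays that was adjusted in its own analysis. Its part in these values was not tested.

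**Figure D4:**
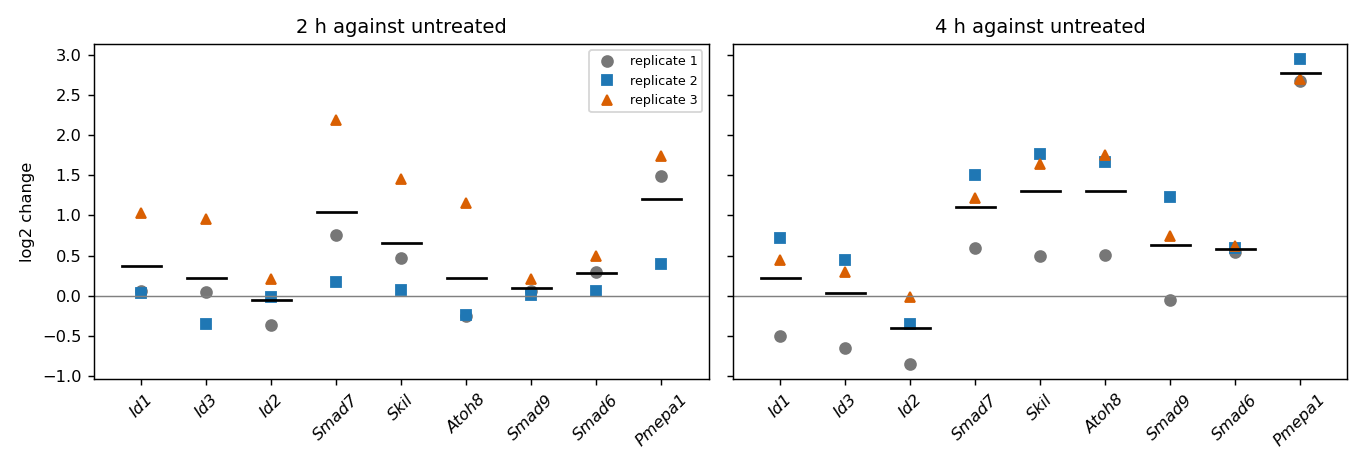
Log2 change at 2 h (left) and 4 h (right) against the untreated array of the same replicate for Id1, Id3, Id2 and 6 SMAD-responsive genes (Id4 is not drawn). Symbols are replicates and bars limma estimates, and at 2 h replicate 3 is highest for each of the 9 genes shown, with 2.19 for Smad7 and 1.03 for Id1.

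The lists here called BMP pathway also hold TGF-β and activin family genes and general SMAD inhibitors. Among the called ones these were Tgfbr1, Inhbc, Pmepa1, Skil and Ski. The lists were chosen with earlier results of these data known, so the counts do not test a BMP response. Of 70 measured BMP pathway genes outside the ID group, limma called 9 higher and 2 lower at 4 h and 0 at 20 min and 2 h. The background at 4 h was 1.57% of all probe sets higher and 3.02% lower. The median change of the 70 genes was 0.00 against 0.02 over all probe sets. The count rests on few arrays: it was 3 without replicate 2, where Pmepa1, Smad6 and Tgfbr1 were left, 1 (Pmepa1) without replicate 3 and 7 without the 4 h array of replicate 3. Without pairing by replicate number it was 1, again Pmepa1. Values are given here for 22 genes called at 4 h, BMP pathway and other lists together but cell type markers left out. Of these, 20 were called without replicate 1, 7 without replicate 2 and 4 (Ccn2, Lox, Pmepa1 and Thbs1) without replicate 3.

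Among 14 ligand genes only Inhbc, an activin subunit made by hepatocytes, fell at 4 h (limma, -0.40, adjusted p = 0.0424), a call kept in 8 of 24 alternatives and lost when any one of the 3 replicates was left out. Bmp2 and Bmp6 had estimates of -0.09 and -0.06 (limma, adjusted p = 0.769 and 0.699). Bmp2 had a mean log2 signal of 5.80, below the median of 7.23 over all probe sets. How far Bmp2 stood above background was not tested. Of 18 receptors and co-receptors, Tgfbr1, the TGF-β type I receptor gene, rose by 0.82 and the BMP receptor genes Acvr1 and Bmpr2 by 0.62 and 0.48 (limma, adjusted p = 0.00282, 0.0083 and 0.00866). Tfr2, a transferrin receptor gene of the hepcidin pathway, fell by 0.40 (limma, adjusted p = 0.0105). None of the 6 signal-transducing SMAD genes was called, with Smad1 at -0.04 and Smad5 at 0.01.

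Inhibitors made up 5 of the 9 genes called higher, with 21 measured. They were Pmepa1, Skil, Smad6, the co-repressor gene Ski at 0.43 and the antiproliferative gene Tob2 at 0.36 (limma, adjusted p = 0.00572 and 0.0121 for the last pair). Of 16 measured BMP target genes, Atoh8 and Smad6 were called and 14 were not. Of 21 measured TGF-β and SMAD3 target genes, 8 were called higher and 1 lower, against 1.57% and 3.02% of all probe sets. Among the 8 were Ccn2 (1.96), Thbs1 (1.48) and Lox (1.38), whose products act in the extracellular matrix (limma, adjusted p = 0.00143, 0.00292 and 0.0017). The gene called lower was Atf3, a repressor that works with SMAD3 on Id1 in epithelial cells. It differed by -0.38, -1.12 and -1.04 (limma, estimate -0.85, adjusted p = 0.00648), a call lost without replicate 2 and without replicate 3. Pmepa1, Skil and Tgfbr1 are on both this list and those of the BMP pathway.

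**Figure D5:**
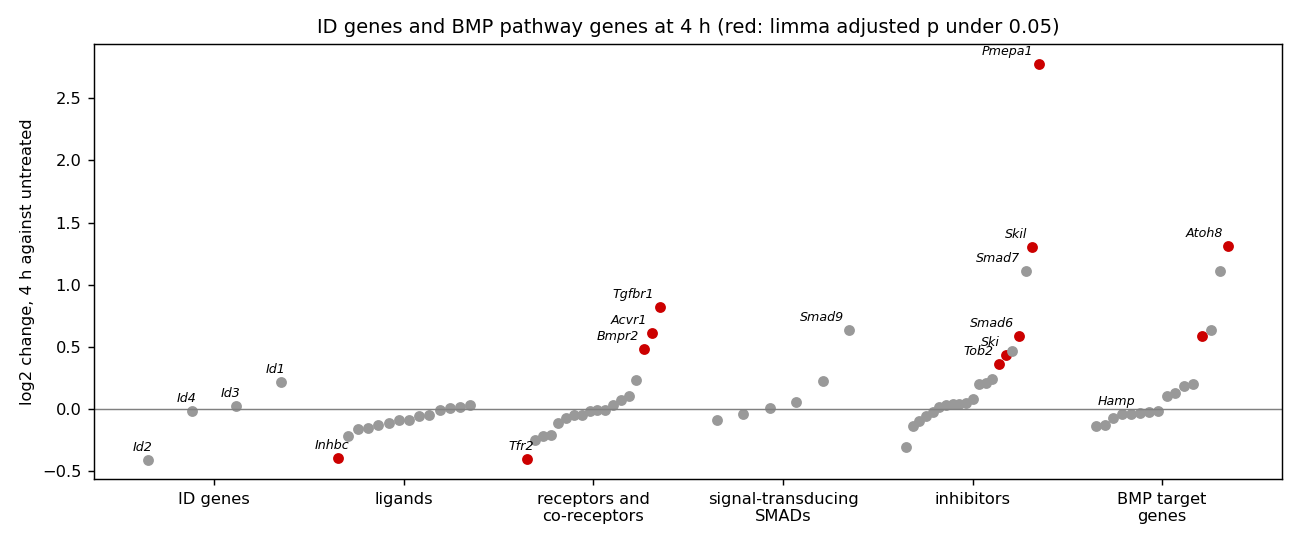
Log2 change at 4 h against untreated cells for the ID genes and 5 groups of BMP pathway genes, each dot 1 gene, sorted within its group. Red dots passed the limma threshold, none of them an ID gene, and Pmepa1 at 2.78 is the highest.

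The E proteins, the binding partners of ID proteins, were all higher at 4 h without passing the threshold. Tcf4 differed by 0.21, 0.61 and 0.19 (limma, estimate 0.34, adjusted p = 0.0693), Tcf12 by 0.05, 0.33 and 0.31 (0.23, adjusted p = 0.138) and Tcf3 by 0.21, 0.26 and 0.00 (0.16, adjusted p = 0.242). All 3 had an unadjusted p under 0.05 in limma, as had 7.54% of all probe sets with a higher signal. Of 19 other bHLH genes measured, Atoh8 rose and Bhlha15, a secretory cell factor gene, fell by 0.49 (limma, adjusted p = 0.0237). The Bhlha15 call was kept in 14 of 24 alternatives. None of 12 HES, HEY and BHLHE genes was called.

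Among 14 cell cycle genes linked to ID proteins, Ets1, a transcription factor gene, rose by 0.73 and Rbl2, of the retinoblastoma family, fell by 0.34 (limma, adjusted p = 0.00302 and 0.0463). The Rbl2 call was kept in 5 of 24 alternatives and lost when any one of the 3 replicates was left out. Of 24 immediate early genes, which share rapid induction with Id1, 5 were called lower and 1 higher at 4 h. Of all probe sets, 3.02% were called lower and 1.57% higher there. Egr1 differed by -0.53, -0.50 and -0.50 (limma, estimate -0.51, adjusted p = 0.00624), Zfp36 had an estimate of -0.65 and Jun of -0.46 (limma, adjusted p = 0.00697 and 0.00451). The calls of Egr1, Zfp36 and Jun were each lost without replicate 2 and without replicate 3. Klf4 rose by 0.52 (limma, adjusted p = 0.0245), a call kept in 13 of 23 alternatives. The fall of these genes stood beside 4 h estimates of 0.22 for Id1 and 0.03 for Id3.

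All 12 hepatocyte markers had a mean signal at or above the median of all probe sets. Of endothelial markers 7 of 12 did, of Kupffer cell and macrophage markers 5 of 12, of stellate cell and fibroblast markers 4 of 11, of cholangiocyte markers 1 of 5 and of lymphocyte markers 0 of 6. Probe sets are not on a common scale, so these counts do not rank the cell types by amount. In such bulk samples fewer cells of a type and less RNA per cell cannot be told apart. The mean log2 signal of the endothelial markers was higher in replicate 1, at 7.68 to 7.74 in the 4 groups, than in replicates 2 and 3, at 7.28 to 7.32. Id3 of replicate 1 exceeded the mean of the other replicates by 1.04 untreated, 1.18 at 20 min, 0.78 at 2 h and 0.01 at 4 h, and Id1 by 1.01, 0.48, 0.54 and -0.07. The hepatocyte marker mean was also higher in replicate 1, at 13.42 against 13.09 and 13.05 untreated and 13.28 against 12.88 and 12.88 at 4 h. For the cholangiocyte markers it was 6.97 against 6.67 and 6.69 untreated and 7.13 against 7.04 and 7.04 at 4 h. The Kupffer cell gene C1qb of replicate 1 exceeded the mean of the others by 0.63 untreated, 0.70 at 20 min, 0.61 at 2 h and 0.01 at 4 h. Genes of this list varied. In the same order the values were 0.56, 0.43, 0.70 and 0.47 for Csf1r and 0.19, 0.23, -0.12 and -0.11 for Fcer1g. They were 0.16, 0.57, 0.28 and 0.03 for C1qc. For the stellate cell gene Dcn they were 2.37, 2.04, 2.17 and 1.99. Dcn is 1 of 11 stellate cell and fibroblast markers, whose mean differed far less between replicates. That mean was 6.88 in replicate 1 against 6.67 and 6.65 untreated, and 6.93 against 6.59 and 6.64 at 4 h. The Kupffer cell marker mean went from between 7.55 and 7.70 in untreated cells to between 7.27 and 7.30 at 4 h. Limma called 5 of the 12 Kupffer cell genes lower there, against 3.02% of all probe sets. The hepatocyte markers Asgr1 and Tat, the endothelial Lyve1 and the stellate Dcn were also called lower. Median changes at 4 h were -0.34 for Kupffer cell, -0.19 for hepatocyte, -0.01 for endothelial and 0.01 for stellate cell markers. The part of these cells in the ID signals was not tested.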

How the data were processed

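RNA of 12 cultures was hybridised to 1-colour Affymetrix Mouse Gene 1.0 ST arrays. The deposited log2 signals come from RMA, run by the authors in Affymetrix Power Tools (versions not given in the sources used here), which corrects background, normalizes quantiles and summarizes probe sets. The study's own analysis used FARMS, with ComBat against a batch effect it describes for the mouse HPC arrays, so its values can differ. Of 35556 probe sets, 21789 had 1 gene symbol in the platform table and were tested, 1621 had several and 12146 were not listed.

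In R 4.3.3, limma 3.58.1 was fitted with factors for time point and for replicate number, with 6 residual degrees of freedom, and p-values were adjusted over all probe sets (Benjamini-Hochberg). The limma F test was used in place of betr. Of several probe sets per gene, that of highest mean signal was taken. Array values carry no counts, and 3 arrays per group limit the precision. The script was tested on simulated data.

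Replicate numbers come from the sample titles. Arrays with the same number deviated together (r = 0.773 to 0.881, 0.555 to 0.794 and 0.644 to 0.707 for replicates 1, 2 and 3), so they were treated as paired. Arrays with different numbers had r of -0.932 to 0.722, and 8 of 12 arrays correlated best with one of their own number.

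The members and lists were chosen with earlier results of these data known. Named were the ID genes and 10 fixed genes, which were SMAD, BMP target and E protein genes, Atf3 and Egr1. Also named were up to 4 called members per list of largest change, and the 5 genes nearest to each ID gene. The other genes given with values (Bmp2, Bmp6, Smad1, Smad5, Tob2 and Jun) were picked once their values had been seen. Other settings tried were other treatments of the replicate number, probe set filters, normalizations, priors, weights and thresholds, the compared groups alone, and leaving out each replicate and array. Proteins and the Id1 promoter are not shown here.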

Additional observations from a re-analysis of the deposited data

How the results depend on the processing

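Limma called 0 ID genes in all 6 comparisons and over the time course, and this count was 0 under every alternative run but 1: without untreated replicate 3, Id2 was called at 4 h, so the count there ranged from 0 to 1 over left-out replicates and arrays. The BMP pathway count at 4 h, 11, was 1 without the replicate block, 6 with the replicate block as a random effect, 17 with array weights, 1 at the study's threshold (adjusted p under 0.01 and 2-fold) and 6 with the compared groups alone, and ranged from 1 to 14 over left-out replicates and arrays. At 2 h it ranged from 0 to 1, with Pmepa1 called without replicate 2 and without the 2 h array of replicate 2. The replicate block changed no call of an ID gene.

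Signs turned for changes near 0. With array weights Id2 at 2 h was 0.042, Id4 at 20 min 0.000915 and Id4 at 4 h 0.024, and centred on the array median Id2 at 20 min was -0.020. Over left-out replicates and arrays, estimates against untreated cells ranged across 0 for Id1 at 4 h (-0.039 to 0.58), Id2 at 20 min (-0.15 to 0.16) and 2 h (-0.21 to 0.10), Id3 at 2 h (-0.15 to 0.56) and 4 h (-0.29 to 0.37) and Id4 at 20 min (-0.13 to 0.038) and 4 h (-0.076 to 0.054). From 20 min to 2 h they did so for Id2 (-0.11 to 0.00192), from 20 min to 4 h for Id3 (-0.093 to 0.62) and Id4 (-0.052 to 0.085), and from 2 h to 4 h for Id1 (-0.57 to 0.13) and Id3 (-0.68 to 0.14). Id2 at 4 h stayed lower (-0.60 to -0.18, limma, adjusted p = 0.0312 to 0.453 over all alternatives). The alternatives for other named genes at 4 h were added after seeing the data. Hamp ranged across 0 (-0.14 to 0.022). So did Bhlhe40 (-0.0065 to 0.50, below 0 without the 4 h array of replicate 2). Cell type markers left out, 22 other named genes were called at 4 h. Of these, 2 were called without the replicate block, 11 with it as a random effect and 13 with the compared groups alone. Averaging a gene's probe sets was not run, since each ID gene has 1. The cause of these shifts was not tested. How far Id4 stood above background was not tested.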
